A study of Mus musculus with 14 samples.

Results

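Oxidative phosphorylation is run by protein complexes of the inner mitochondrial membrane, most of whose subunits are encoded in the nucleus. Complexes I (NADH dehydrogenase) and II (succinate dehydrogenase) pass electrons to ubiquinone, complex III passes them on to cytochrome c and complex IV to oxygen. Complex V, the ATP synthase, uses the proton gradient built on the way to make ATP. A naive T cell at rest draws much of its ATP from this chain, and activation adds glycolysis and mitochondrial growth.

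The genes described here are the nuclear ones that the symbols place in these complexes: those starting with Nduf (complex I), Sdha to Sdhd (complex II), Uqcr (complex III), Cox4 to Cox8 (complex IV) and Atp5 (complex V). The rule found 85 genes of the 12843 in the table of cells stimulated with IFN-beta, and 86 of the 14732 in the table without it. All 85 were among the 86, and the remaining gene was Cox7a1, the heart and muscle form of a complex IV subunit. Complex I had 44 genes, 7 of them Ndufaf assembly factors, complex II had 4, complex III had 8, complex V had 17 and complex IV had 12 with and 13 without IFN-beta. The grouping follows the symbols, so that Ndufa4, whose protein is also known from complex IV, counts under complex I, and Atp5sl, known from complex I assembly, counts under complex V. The symbol rule used no measured value.

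The cells were splenic CD8 T cells of C57BL/6 mice, sorted as naive by high CD62L and low CD44. They were labelled either Morrbid-/- or wild type, where Morrbid is a long noncoding RNA gene near the death gene Bcl2l11. The deleted stretch is not described in the sources used here. All groups had 6 h on plates coated with anti-CD3 (1 µg/mL), with anti-CD28 in solution (1 µg/mL), which stand in for antigen and costimulation. The groups were Morrbid-/- with 20 ng/mL IFN-beta (4 libraries), wild type with IFN-beta (4), Morrbid-/- without IFN-beta (3) and wild type without it (3). Total RNA was read as pairs of 75 bases. Replicates are not stated to be separate animals, so each p-value reflects only how far these samples spread, and part of that may be technical.

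Recovered reads per library ranged from 5788070 to 7355337 with IFN-beta and from 1747634 to 2963149 without it. All 6 markers of the CD8 T cell list were present, Cd8a and Cd8b1 with the general T cell genes Cd3d, Cd3e, Cd3g and Trac. With IFN-beta they summed to 7406 to 8463 normalized counts in the libraries labelled Morrbid-/- and 7861 to 8531 in wild type. The 2 of 5 B cell markers listed there summed to at most 28.4. Of the CD4 T cell markers Cd4 was not listed, and Foxp3 reached at most 9.16. Morrbid itself, listed as Gm14005, was near the floor without IFN-beta, where the libraries labelled Morrbid-/- held 7, 4 and 7 reads of it and the wild-type ones 2, 4 and 2. Its reads therefore did not show the loss that the label gives, and every direction below follows the labels. Morrbid with IFN-beta was not analysed here. In bulk RNA, fewer cells of a type and less RNA per cell cannot be told apart.

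Of the 86 genes, 3 passed the test between genotypes, all with IFN-beta: Ndufb4, Uqcrfs1 and Cox7a2l. Their promoter sequences are shown because these genes passed, and because regulators such as NRF1 are known to act at promoters of respiratory chain genes. No link between these sequences and the changes was tested. Each runs 5′ to 3′ on the gene's strand from 250 bases before to 50 bases after the RefSeq start (GRCm38.p6), and capitals mark matches to the motifs named below. The positions are chr16:37654319-37654618, minus strand, for Ndufb4, chr13:30545267-30545566, minus strand, for Uqcrfs1 and chr17:83514284-83514583, minus strand, for Cox7a2l.
Ndufb4: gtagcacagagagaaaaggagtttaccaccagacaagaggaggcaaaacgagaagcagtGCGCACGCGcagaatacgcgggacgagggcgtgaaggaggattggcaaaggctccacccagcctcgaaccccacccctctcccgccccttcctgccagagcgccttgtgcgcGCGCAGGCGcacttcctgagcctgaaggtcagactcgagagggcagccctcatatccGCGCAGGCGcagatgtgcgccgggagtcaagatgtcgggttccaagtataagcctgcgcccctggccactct
Uqcrfs1: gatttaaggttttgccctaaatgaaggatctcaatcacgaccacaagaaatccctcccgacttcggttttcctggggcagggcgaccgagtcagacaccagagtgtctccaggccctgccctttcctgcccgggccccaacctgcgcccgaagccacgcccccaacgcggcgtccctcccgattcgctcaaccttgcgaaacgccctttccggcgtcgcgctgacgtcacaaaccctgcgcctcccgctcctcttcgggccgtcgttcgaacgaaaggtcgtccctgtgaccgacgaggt
Cox7a2l: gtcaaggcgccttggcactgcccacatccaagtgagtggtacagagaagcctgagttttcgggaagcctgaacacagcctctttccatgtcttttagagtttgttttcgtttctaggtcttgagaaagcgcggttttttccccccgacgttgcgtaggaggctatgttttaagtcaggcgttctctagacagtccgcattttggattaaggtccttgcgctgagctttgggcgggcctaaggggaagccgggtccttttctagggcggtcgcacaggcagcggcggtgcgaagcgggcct

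The motifs were searched on both strands: GCGCANGCG for NRF1, CCGGAAG for ETS factors, AAGATGG for YY1 and GAAANNGAAA for the interferon-stimulated response element. No match of one motif overlapped another in the sequences printed. The Ndufb4 promoter held 3 NRF1 matches, the first bases lying 191, 79 and 22 bases before the start. The Uqcrfs1 and Cox7a2l promoters held none of the 4 letter strings in this window. Promoters were on hand for 74 of the 86 genes, 80 promoters in all. Of these, 28.8% held the NRF1 string, against 14.9% of the promoters of all tested genes and 6.25% of all 32851 RefSeq promoters. The YY1 string stood in 16.2% of them, against 7.83% of tested and 6.34% of all promoters. The ETS string stood in 21.2%, against 20.1% and 8.86%, and the interferon element in 2.5%, against 3.28% and 3.44%. A match describes the letters and is not a measured binding site.

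Without IFN-beta, no oxidative phosphorylation gene passed between the genotypes. A mean of 10 or more normalized counts was required for the test, which 77 genes met, and 0 of these were higher and 0 lower in the libraries labelled Morrbid-/- (limma on log2(normalized count + 1), Benjamini-Hochberg adjusted over all tested genes, threshold 0.05). Over all 9290 tested genes, 0.635% were called, 50 higher and 9 lower. Among the 77 genes 2 had an unadjusted p under 0.05 (2.6%, beside 6.1% of all tested genes), edgeR called 0 (2 unadjusted) and DESeq2 called 0 (1 unadjusted). The median log2 change of the 77 genes was -0.06, beside -0.01 over all tested genes, and single changes ran from -0.53 to 0.56. The 95% interval of the change lay within ±1 on the log2 scale for 66 of the 77 genes and within ±0.5 for 20 of them. Their median SE was 0.218, beside 0.169 over all tested genes.

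**Figure D1:**
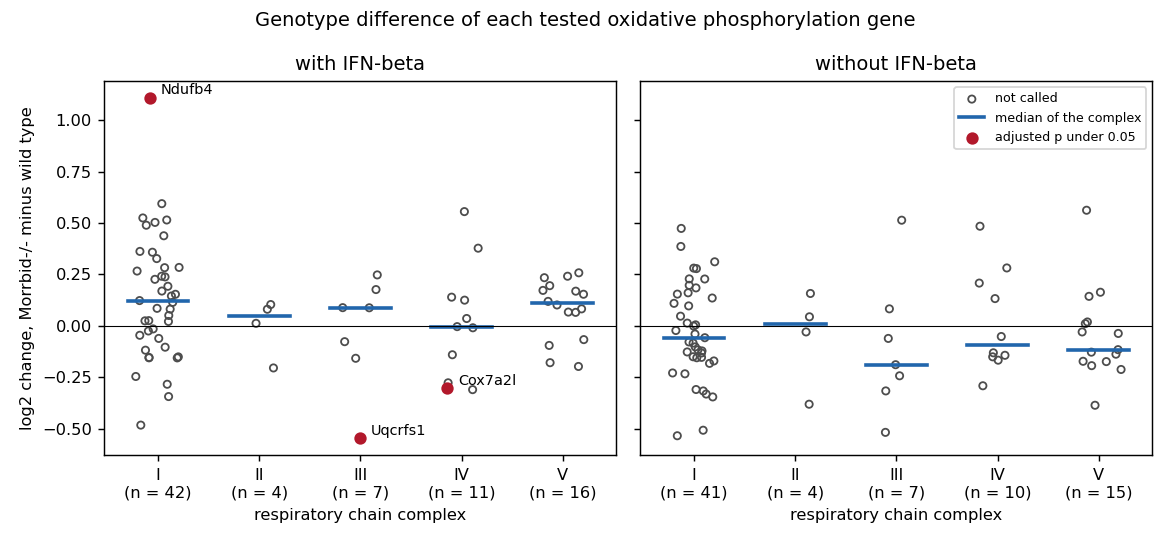
Log2 change (Morrbid-/- minus wild type, on the log2(normalized count + 1) scale) of each tested gene, by complex, with IFN-beta (left) and without it (right). Open circles did not pass, filled circles passed at an adjusted p under 0.05, and bars are the medians of the complexes. The points of both panels lie mostly within ±0.5, and Ndufb4 stands at 1.11 with IFN-beta.

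By complex, the median change without IFN-beta was -0.06 for the 41 tested genes of complex I, 0.01 for the 4 of complex II and -0.19 for the 7 of complex III. It was -0.09 for the 10 of complex IV and -0.12 for the 15 of complex V. Genotypes did not overlap in 10 of the 77 genes, 7 higher and 3 lower in the libraries labelled Morrbid-/-, beside 10.9% of all tested genes. The 7 higher genes were Ndufs1, Ndufa10, Ndufaf5, Ndufaf7, Ndufa4, Ndufb7 and Sdha, and the 3 lower ones were Ndufa6, Sdhc and Uqcr10. None of these had an adjusted p under 0.05.

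The genes with the smallest p without IFN-beta are given as values. Cox7a2l, grouped here under complex IV, had 243, 263 and 220 normalized counts in the libraries labelled Morrbid-/-, against 329, 305 and 258 in wild type. The lowest wild-type library lay below the highest one labelled Morrbid-/-, and the log2 change was -0.29 (SE 0.12; limma adjusted p = 0.641). Uqcrc2, a core subunit of complex III, had 245, 174 and 166 in the libraries labelled Morrbid-/-, against 276, 239 and 207 in wild type, a change of -0.32 (SE 0.14; limma adjusted p = 0.769), which was -0.49 without the Morrbid-/- replicate 1 and -0.21 without the Morrbid-/- replicate 3. Ndufa6, an accessory subunit of complex I, had 24.3, 23.6 and 24.6 in the libraries labelled Morrbid-/-, against 38.4, 39.5 and 27.5 in wild type, without overlap (-0.51, SE 0.25; limma adjusted p = 0.813).

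On the other side, Atp5g2, one of the genes for the membrane rotor ring of ATP synthase, had 24.3, 30.1 and 16.4 normalized counts in the libraries labelled Morrbid-/-, against 17.0, 13.5 and 15.3 in wild type. The lowest library labelled Morrbid-/- lay among the wild-type ones (0.56, SE 0.31; limma adjusted p = 0.863). Of its 75-base stretches, 35.8% also occur in another gene's transcripts, mainly those of the pseudogene Gm10175. Ndufs1, which carries iron-sulfur clusters of complex I, had 220, 241 and 221 in the libraries labelled Morrbid-/-, against 203, 195 and 196 in wild type (0.20, SE 0.11; limma adjusted p = 0.868). Cox6c, an accessory subunit of complex IV, had 106, 106 and 100 in the libraries labelled Morrbid-/-, against 104, 68.7 and 87.9 in wild type (0.28, SE 0.16; limma adjusted p = 0.868). Its change was 0.13 without the wild-type replicate 2, and that of Atp5g2 was 0.37 without the Morrbid-/- replicate 2.

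With IFN-beta, 1 oxidative phosphorylation gene was higher and 2 were lower in the libraries labelled Morrbid-/- than in wild type, and 77 of the 80 tested did not pass. Over all 9964 tested genes 10.1% were called (523 higher and 482 lower, or 730 and 344 after rescaling to equal library totals). The 3 genes called are a smaller share than that background, and the median change of the 80 genes was 0.09, beside 0.00 over all tested genes. An unadjusted p under 0.05 was found for 13 of the 80 genes (16.2%), beside 24.4% of all tested genes, and edgeR called 1 higher and 2 lower. DESeq2 called 0 higher and 1 lower, and it gave no adjusted p for 12 of the genes, Ndufb4 among them. The 95% interval lay within ±1 log2 for 73 of the 80 genes and within ±0.5 for 38 of them, beside 9204 and 5989 of the 9964. The median SE of the 80 genes was 0.167, beside 0.123 over all tested genes. They were thus measured less precisely than the background they are set beside. Genotypes did not overlap in 7 genes, 3 higher (Ndufb4, Ndufa5 and Ndufa11) and 4 lower (Uqcrfs1, Cox7a2l, Ndufa7 and Ndufc1), beside 15.2% of all tested genes.

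Ndufb4 (Entrez 68194, chromosome 16, 37647602 to 37654368, GRCm38.p6), an accessory subunit of the membrane arm of complex I, was higher in the Morrbid-/- libraries, so labelled, with IFN-beta. Its normalized counts were 18.3, 27.5, 23.4 and 21.9 in the libraries labelled Morrbid-/-, against 9.44, 6.14, 10.5 and 15.6 in wild type. The lowest library labelled Morrbid-/- lay above the highest wild-type one. It averaged 22.8 ± 3.79 in the libraries labelled Morrbid-/- and 10.4 ± 3.93 in wild type (SD, n = 4 each). The log2 change was 1.11 (SE 0.31; limma adjusted p = 0.0229). These values rest on 6 to 30 reads per library, and 17.2% of the gene's 75-base stretches also occur in transcripts of other genes, mainly the pseudogenes Ndufb4c and Gm16056. How the counting treated reads that fit several places is not given in the sources used here. The adjusted p was 0.0955 without the Morrbid-/- replicate 2, 0.0615 without the Morrbid-/- replicate 3 and 0.0736 without the wild-type replicate 2.

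Uqcrfs1 (Entrez 66694, chromosome 13, 30540312 to 30545316), the Rieske iron-sulfur subunit that takes electrons from ubiquinol in complex III, was lower in the Morrbid-/- libraries, so labelled, with IFN-beta. Its normalized counts were 183, 157, 267 and 273 in those libraries, against 319, 378, 274 and 289 in wild type. The genotypes did not overlap, but the highest library labelled Morrbid-/- and the lowest wild-type one differed by less than 2 normalized counts. It averaged 220 ± 58.7 in the libraries labelled Morrbid-/- and 315 ± 45.8 in wild type (SD, n = 4 each). The log2 change was -0.55 (SE 0.14; limma adjusted p = 0.0128). None of its 75-base stretches occurs in another gene's transcripts. The adjusted p was 0.0755 without the Morrbid-/- replicate 2 and 0.067 without the wild-type replicate 2, and 0.113 by DESeq2. Another model of the spread also ended the call, at 0.164 without the mean-variance trend, 0.0996 with robust empirical Bayes and 0.0604 in one fit of all libraries.

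Cox7a2l (Entrez 20463, chromosome 17, 83501917 to 83514333) was lower in the Morrbid-/- libraries, so labelled, with IFN-beta. It had 432, 378, 418 and 451 normalized counts there, against 516, 507, 522 and 520 in wild type. The wild-type libraries lay within a narrow band, and every library labelled Morrbid-/- lay below it. It averaged 419 ± 31.0 in the libraries labelled Morrbid-/- and 516 ± 6.8 in wild type (SD, n = 4 each). The log2 change was -0.30 (SE 0.08; limma adjusted p = 0.0108). The change without IFN-beta, in separate libraries, was -0.29 and did not pass. The difference between the changes was -0.01, with a 95% interval of -0.28 to 0.26. The pseudogene Gm6969 shares 10.4% of the gene's 75-base stretches, and the adjusted p was 0.0618 without the Morrbid-/- replicate 2 and 0.0666 without the mean-variance trend.

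**Figure D2:**
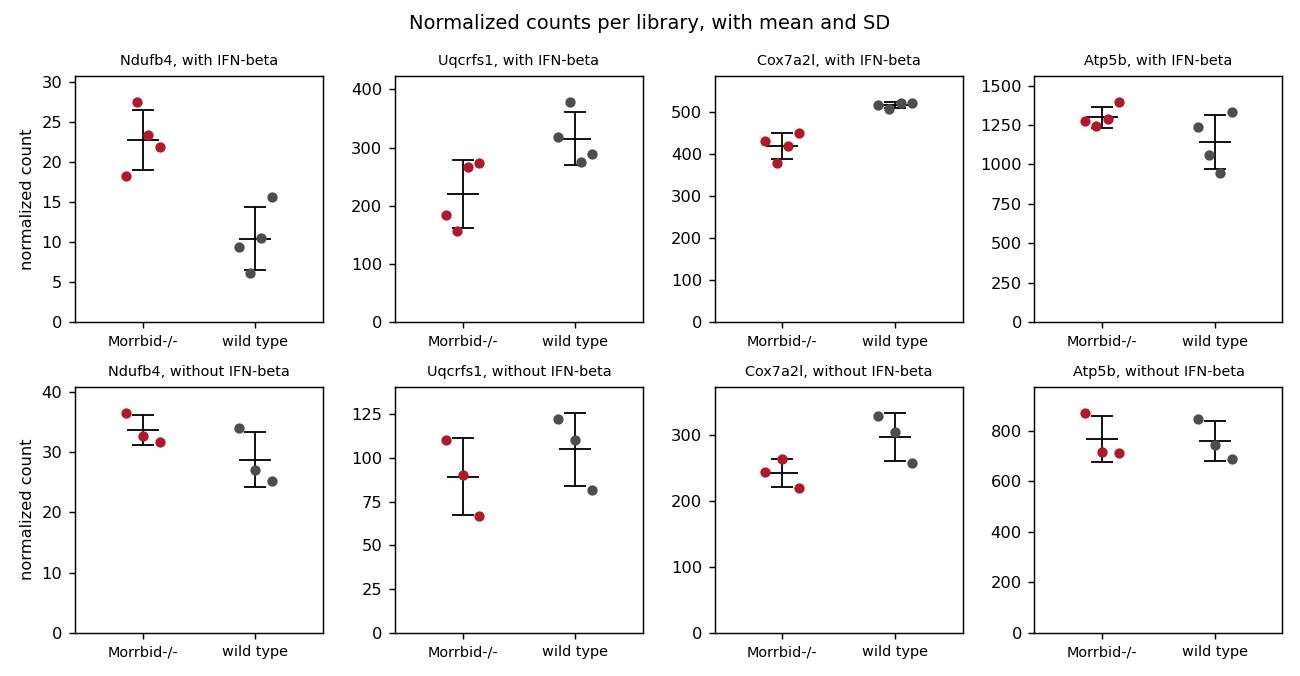
Normalized counts per library of Ndufb4, Uqcrfs1, Cox7a2l and Atp5b, with Morrbid-/- (red) left of wild type (grey), with IFN-beta (top) and without it (bottom). Points are libraries, and bars are the mean and SD. With IFN-beta the genotypes do not overlap for the 3 genes that passed, and they overlap for Atp5b.

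Other genes with small p in the presence of IFN-beta did not pass. Ndufa5, an accessory subunit of the matrix arm of complex I, had 54.1, 52.2, 45.8 and 43.8 normalized counts in the libraries labelled Morrbid-/-, against 36.6, 23.6, 42.0 and 35.2 in wild type, without overlap (0.52, SE 0.20; limma adjusted p = 0.0988). Atp5b, the catalytic beta subunit of ATP synthase, had 1275, 1242, 1286 and 1395 in the libraries labelled Morrbid-/-, against 1238, 1062, 944 and 1330 in wild type (0.20, SE 0.08; limma adjusted p = 0.138). Cox7b, an accessory subunit of complex IV, had 164, 142, 146 and 189 in the libraries labelled Morrbid-/-, against 173, 219, 173 and 232 in wild type (-0.31, SE 0.12; limma adjusted p = 0.105). The change of Atp5b was 0.11 without the wild-type replicate 3 (limma adjusted p = 0.418) and 0.27 without the wild-type replicate 4, where it passed (adjusted p = 0.0275). Without single libraries its adjusted p ran otherwise from 0.109 to 0.302, and Cox7b passed without the Morrbid-/- replicate 4 (adjusted p = 0.0464).

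By complex, with IFN-beta, complex I had 1 gene higher, 0 lower and 41 not called, with a median change of 0.12. Its tested assembly factors, 6 genes that help build it, had 0 called and a median of 0.07. Complex II had 0 called of 4 (median 0.05), and complex V had 0 called of 16 (median 0.11). Complex III had 1 lower of 7 (median 0.09), and complex IV had 1 lower of 11 (median 0.00).

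The 4 subunits of complex II, the only complex with no mitochondrially encoded part, overlapped between genotypes with IFN-beta. Sdha, the flavoprotein, averaged 596 ± 30.0 normalized counts in the libraries labelled Morrbid-/- and 566 ± 69.6 in wild type (SD, n = 4 each). Sdhb, the iron-sulfur subunit, averaged 141 ± 13.99 in the libraries labelled Morrbid-/- and 164 ± 24.1 in wild type. The membrane anchors Sdhc and Sdhd averaged 82.9 ± 4.99 and 108 ± 21.2 in the libraries labelled Morrbid-/-, and 83.6 ± 19.9 and 99.5 ± 12.6 in wild type. The 95% intervals of the 4 log2 changes together spanned -0.45 to 0.40, and none passed (limma adjusted p from 0.308 to 0.972).

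The sign of the change with IFN-beta differed with the level of the gene. Of the 31 tested genes with a mean under 50, 26 had a positive change, with a median of 0.24, whereas 51.6% of all tested genes at that level were positive, with a median of 0.01. Of the 49 genes averaging 50 or more, 26 were positive, with a median of 0.02. Within the 31 low genes, the 24 with transcripts under 1200 bases and the 7 with longer ones both had a median of 0.24. Over all tested genes with a mean under 50, the median was 0.06 for the shorter and 0.01 for the longer transcripts. Without IFN-beta 17 of the 42 low genes were positive, with a median of -0.11, beside 53.6% of all tested genes at that level. There 13 of the 35 genes averaging 50 or more were positive, with a median of -0.05. This split by level was chosen with the values known, and it carries no test.

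The difference of the genotype effect with and without IFN-beta was tested in one fit of all libraries. Of 77 genes 0 passed in either direction in limma, beside 1.33% of 9078 tested genes. In limma 3 of them had an unadjusted p under 0.05 (3.9%, beside 12.01% of all tested genes). Both edgeR and DESeq2 called 0, with 1 unadjusted each, and DESeq2 gave no adjusted p for 36 of the 77. The median difference was 0.11, beside 0.01 over all tested genes, and the median SE was 0.28, beside 0.20. The smallest p-values belonged to Ndufb4 at 0.88 (SE 0.39; limma adjusted p = 0.355), Uqcr10, a small subunit of complex III, at 0.76 (SE 0.35; adjusted p = 0.383) and Ndufa3, an accessory subunit of complex I, at 0.82 (SE 0.39; adjusted p = 0.407). For Ndufb4 without IFN-beta the libraries labelled Morrbid-/- had 36.5, 32.7 and 31.7 normalized counts, against 33.97, 27.1 and 25.2 in wild type, which overlapped. The call for Ndufb4 with IFN-beta is therefore not shown to be particular to IFN-beta. For Uqcrfs1 the difference was -0.30, with a 95% interval of -0.83 to 0.23.

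Summed over all genes of a library, the chain overlapped between the genotypes. With IFN-beta the sums were 11261, 11376, 11676 and 12758 normalized counts in the libraries labelled Morrbid-/-, against 12066, 11278, 10691 and 12458 in wild type. Without IFN-beta they were 7219, 6168 and 5736 in the libraries labelled Morrbid-/-, against 7401, 6333 and 5996 in wild type. The ratio of the means, Morrbid-/- over wild type, was 1.01 with and 0.97 without IFN-beta. By complex the ratio with IFN-beta was 1.03 for complex I, 1.02 for II, 0.94 for III, 0.91 for IV and 1.05 for V. Without IFN-beta it was 0.99, 1.05, 0.90, 0.94 and 0.96 in the same order.

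In these sums, libraries of one genotype differed more than the genotypes did, and many genes shared that spread. Without IFN-beta, replicate 1 was the highest library for 46 of the 77 genes (59.7%) among those labelled Morrbid-/- and also for 46 of 77 in wild type, beside 35.2% and 35.4% of all tested genes. With IFN-beta, replicate 4 was the highest for 39 of 80 genes (48.8%) among the libraries labelled Morrbid-/- and for 34 of 80 (42.5%) in wild type, beside 29.0% and 25.3% of all tested genes. The summed cytosolic ribosomal protein genes moved along. Without IFN-beta they stood at 105359, 83494 and 70699 normalized counts in replicates 1, 2 and 3 labelled Morrbid-/- and at 120274, 108238 and 81700 in wild type, the same order as the sums of the chain within each genotype. The share of mitochondrial 16S rRNA in the reads had that order too, at 18.9%, 12.8% and 11.6% in the libraries labelled Morrbid-/-, against 18.1%, 16.01% and 12.5% in wild type. With IFN-beta the ribosomal protein sum of replicate 4 labelled Morrbid-/- was 192643, and the other 3 lay between 159024 and 160927. With the 16S share as a covariate, the limma adjusted p was 0.0621 for Ndufb4, 0.0791 for Uqcrfs1 and 0.0143 for Atp5b. The part of the ribosomal protein sum in these results was not tested.

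**Figure D3:**
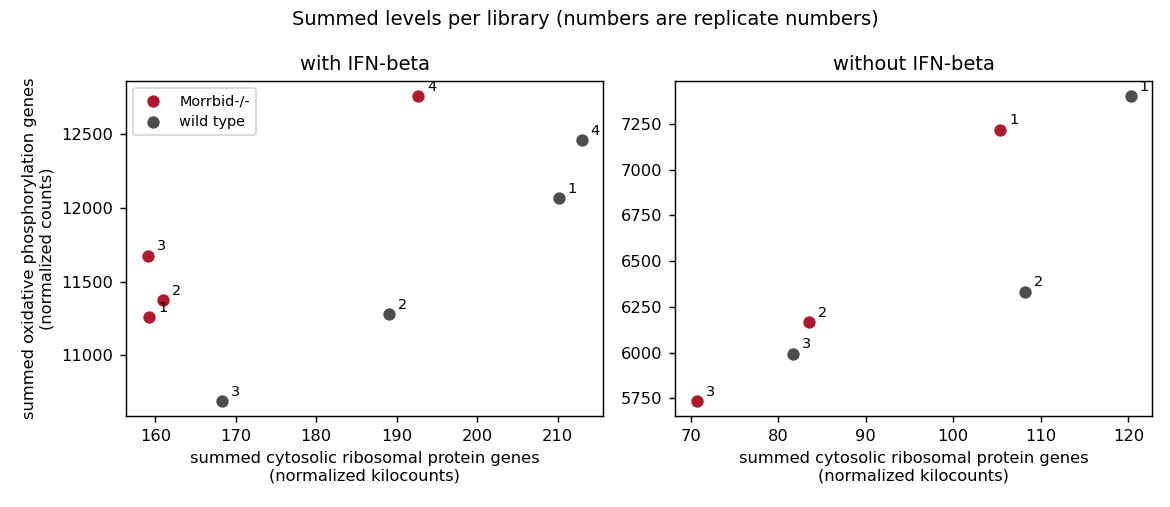
Summed normalized counts of the oxidative phosphorylation genes (vertical) against those of the cytosolic ribosomal protein genes on a scale of kilocounts (horizontal), one point per library, Morrbid-/- in red and wild type in grey, with replicate numbers, with IFN-beta (left) and without it (right). Axes do not start at 0. Libraries high in one sum tend to be high in the other, and the genotypes overlap in the sum of the chain in both panels.

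Per transcript length, the genes of the chain spanned a wide range of levels. Atp5b was the highest in both tables, at 637 normalized counts per kilobase of transcript with IFN-beta and 399 without it, and Atp5a1, the alpha subunit beside it, was next at 530 and 297. In complex IV Cox7a2l was the highest, at 424 and 245. In complex III it was Uqcrh, the hinge protein, at 307 and 145. In complex II Sdha led, at 200.5 and 90.2. In complex I Ndufb9, an accessory subunit, led with IFN-beta at 269, and Ndufv2, an iron-sulfur subunit, led without it at 148. The tables were normalized separately, so these pairs of levels are set side by side and were not tested. The median level with IFN-beta was 53.0 per kilobase in complex I, 109 in II, 187 in III, 131 in IV and 145 in V. Over the 85 genes the rank correlation of level per kilobase with transcript length was 0.05 with IFN-beta, a description of genes that share libraries.

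**Figure D4:**
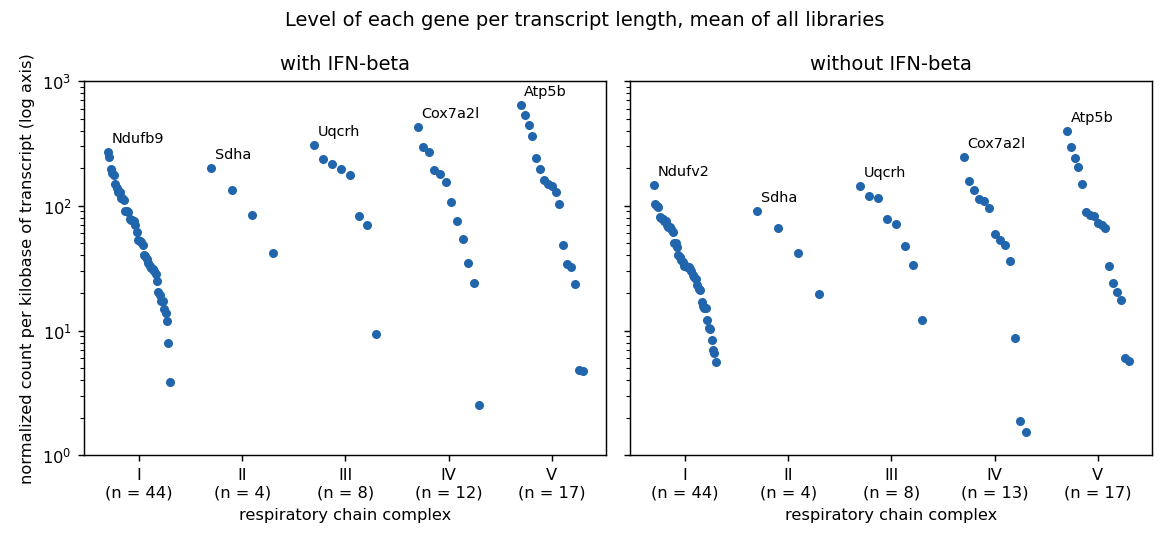
Mean normalized count per kilobase of transcript of each gene (log axis), by complex, with IFN-beta (left) and without it (right), ordered from high to low within a complex. The highest gene of each complex is named, and Atp5b stands at 637 with and 399 without IFN-beta.

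Where both forms of a tissue isoform pair were listed, as for Cox6b1 and Cox6b2 and for Cox7a2 and Cox7a1, the widely expressed one was higher. Cox4i2, Cox6a2, Cox8b and Ndufa4l2 were not listed with or without IFN-beta, so their partners stand alone here. Cox4i1, Cox6b1, Cox7a2 and Cox8a stood at 271, 155, 76.1 and 54.3 normalized counts per kilobase with IFN-beta, and Ndufa4 at 39.3. Cox6b2, a testis form, stood at 2.52 with IFN-beta. Cox7a1, listed only without IFN-beta, stood at 1.90 there, where Cox7a2 stood at 48.5. Cox6a1, the widely expressed form of its subunit, stood at only 24.1 with IFN-beta, resting on a mean of 13.8 normalized counts. The 3 genes that encode the same mature rotor ring protein of ATP synthase differed in level per kilobase with IFN-beta. Atp5g3 stood at 130, Atp5g2 at 23.8 and Atp5g1 at 4.82. Before division by length, Atp5g2 and Atp5g1 had similar means, 13.95 and 12.88 normalized counts, against 93.2 for Atp5g3. The gap between Atp5g2 and Atp5g1 therefore rests on the transcript lengths used, 586 and 2675.5 bases. Whether these lengths match the transcripts present was not tested. Cox6b2 and Cox7a1 were not tested between genotypes, and of the other isoform genes named here 0 passed in limma where they were tested (adjusted p from 0.373 upwards).

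The genes under the mean of 10 were not tested. With IFN-beta these were Cox6b2, Ndufa1, Ndufaf2, Uqcr11 and Atp5s. Without IFN-beta they were the same 5 and also Atp5k, Cox6a1, Cox7a1 and Ndufs6. Their normalized counts lay between 0 and 14.7 with IFN-beta and between 0 and 12.5 without it, and the genotypes overlapped for each of them.

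Lists of related mitochondrial genes were set beside the chain, and the plot of related lists shows them with all genes. With IFN-beta, limma called 0 genes in 8 of the lists. The genes with the smallest p in these are given as values. Among 8 cytochrome c and complex III factors (median change 0.08, 1 unadjusted p under 0.05, which 24.4% of all tested genes had) it was Uqcc3 at 0.56 (limma adjusted p = 0.131), then Bcs1l at 0.44. Among 7 complex I assembly factors outside the symbol rule (median -0.21, 1 unadjusted), 0 had a positive change, with Tmem186 at -0.19 (limma adjusted p = 0.202) and Acad9 at -0.16. For complex IV assembly (20 genes, median -0.06, 1 unadjusted) they were Lrpprc at -0.18 and Pet100 at 0.28, with limma adjusted p-values of 0.164 and 0.221. For complex II assembly (2 genes, median 0.16, 1 unadjusted) they were Sdhaf1 at 0.42 and Sdhaf2 at -0.10. For the 6 genes around complex V (median -0.18, 1 unadjusted) they were Tmem70, an ATP synthase assembly factor, at -0.37 (limma adjusted p = 0.07), and Usmg5 at -0.28.

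Ubiquinone synthesis and other quinone-linked enzymes (15 genes, median -0.12, 2 unadjusted) had Pdss1 at -0.48 and Coq2 at -0.29, with limma adjusted p-values of 0.118 and 0.167. In the tricarboxylic acid cycle (17 genes, median -0.03, 1 unadjusted), Ogdh stood at 0.21 (limma adjusted p = 0.0747) and Idh3a at -0.22. In mitochondrial import (23 genes, median 0.02, 4 unadjusted), Timm8b stood at 1.17 (limma adjusted p = 0.0666) and Timm22 at -0.49. Without IFN-beta limma called 0 genes in all 13 lists, with 19 of 93 cytosolic ribosomal protein genes, 2 of 72 mitochondrial ribosome genes and 1 gene each of ubiquinone synthesis and mitochondrial growth regulators at an unadjusted p under 0.05. These are 20.4% of the cytosolic and 2.78% of the mitochondrial ribosome genes, beside 6.1% of all tested genes. The list medians there ran from -0.19 for the ribosomal protein genes to 0.19 for complex II assembly.

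With IFN-beta the other 5 lists held called genes, to be read beside the 10.1% called over all tested genes. Among 75 genes of the mitochondrial ribosome (median -0.02), Mrpl30 was lower in the libraries labelled Morrbid-/- (-0.40, SE 0.09; limma adjusted p = 0.00391) and 0 were higher. Among 13 regulators of mitochondrial growth (median -0.08), 1 was higher and 1 lower in the libraries labelled Morrbid-/-. Yy1, whose protein also binds promoters of respiratory genes, was higher by 0.33 (SE 0.08; limma adjusted p = 0.00786). Tfb2m, a mitochondrial transcription factor, was lower by 0.41 (SE 0.12; limma adjusted p = 0.0301).

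Of 14 carriers and membrane potential genes (median 0.04), 3 rose and 1 fell with IFN-beta. Nnt, the transhydrogenase that makes NADPH from the proton gradient, had 78.8, 83.4, 81.8 and 78.5 normalized counts in the libraries labelled Morrbid-/-, against 42.5, 53.2, 40.9 and 27.3 in wild type (1.00, SE 0.18; limma adjusted p = 6.77e-04). What lies behind the Nnt difference was not tested. The uncoupling protein gene Ucp2 averaged 319 ± 14.9 in the libraries labelled Morrbid-/- and 264 ± 16.05 in wild type (SD, n = 4 each; 0.27; limma adjusted p = 0.0402), and Letm1, a cation exchanger gene, changed by 0.29 (adjusted p = 0.0463). Slc25a5, an ADP/ATP carrier gene, averaged 414 ± 33.98 in the libraries labelled Morrbid-/- and 504 ± 24.7 in wild type (-0.29; limma adjusted p = 0.0201).

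The mitochondrial genome itself encodes 9 of the tested genes (median 0.09). With IFN-beta, 1 of them was higher and 2 were lower in the libraries labelled Morrbid-/- than in wild type. ND5 of complex I was higher by 0.34 (SE 0.10; limma adjusted p = 0.034) and COX1 of complex IV was lower by 0.25 (SE 0.06; limma adjusted p = 0.0117). ND3, another complex I subunit, had 0 reads in all 4 libraries labelled Morrbid-/-, against 27.1, 21.5, 22.2 and 20.5 normalized counts in wild type. Had those 4 libraries held 3 reads together, wild type would stand 33.2-fold higher, a bound that leaves out the spread between replicates. Several other mitochondrial mRNAs were also close to the floor with IFN-beta, whereas COX1 averaged 55523 in the libraries labelled Morrbid-/- and 65991 in wild type. In the same order COX2 averaged 2.96 and 5.74, COX3 8.20 and 9.62, ATP6 16.6 and 11.8, and ATP8 2.97 and 0.26. ATP8 was thus higher in the libraries labelled Morrbid-/-. The ND3 counts are therefore low values and were not checked as levels of the whole mRNA. Without IFN-beta ND3 had 0, 2.62 and 1.02 in the libraries labelled Morrbid-/-, against 4.47, 7.28 and 10.7 in wild type. The cytosolic ribosomal protein genes had 6 higher, 17 lower and 74 not called of 97 (median -0.04), among them Rps14 (-0.56), Rpl22 (-0.79) and Rpl3 (-0.40), with limma adjusted p-values up to 4.58e-04. In the test of the difference between stimulations, Rplp2 alone of these lists passed (0.65, SE 0.15; limma adjusted p = 0.0161). The difference was 0.73 for Nnt, 0.33 for Yy1 and -0.55 for Tfb2m, with limma adjusted p-values of 0.28, 0.25 and 0.123.

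**Figure D5:**
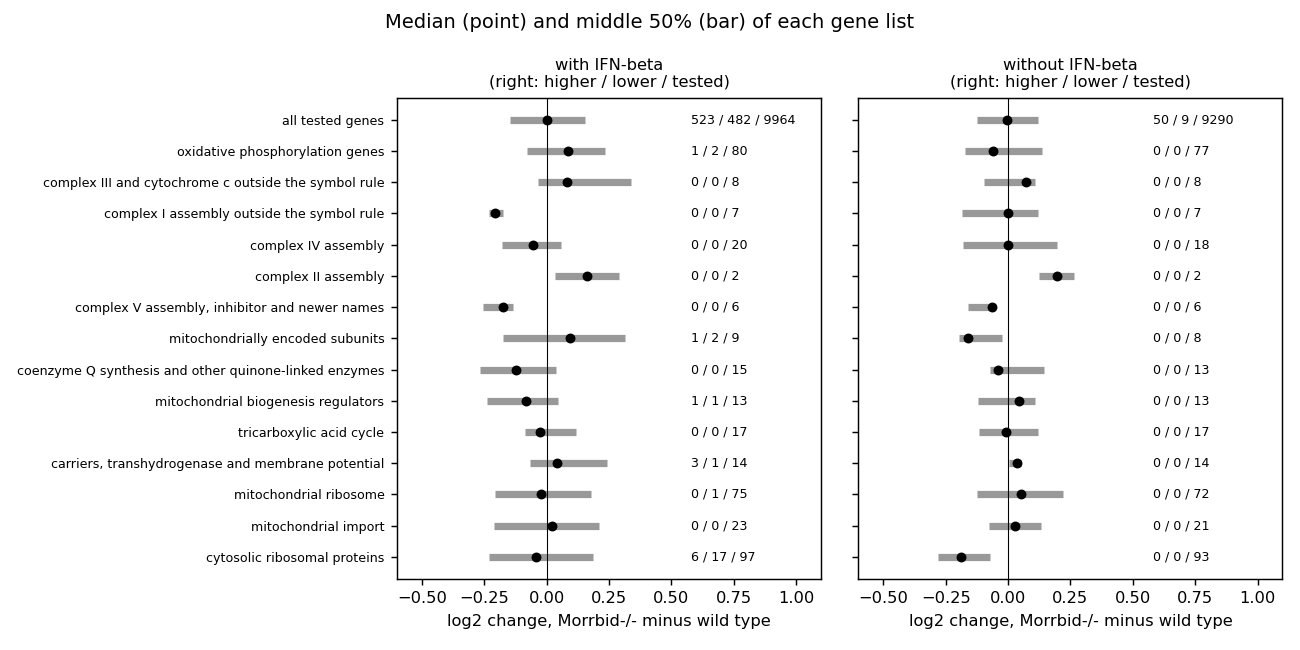
Median log2 change (point) and middle 50% of genes (bar) of each list, Morrbid-/- minus wild type, with IFN-beta (left) and without it (right), with the numbers higher, lower and tested at the right of each row. The oxidative phosphorylation genes have a median of 0.09 with and -0.06 without IFN-beta.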

How the data were processed

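The deposited data are a pair of tables, for stimulation with and without IFN-beta, whose values are counts that the authors scaled between libraries, used here as a signal. Trimmomatic, STAR 2.5, featureCounts, DESeq2 and the genome builds GRCm38 and mm10 are named in the submitters' processing notes. No source used here gives the annotation, the strand setting or how reads with several hits were counted. Dividing each column of the deposited signal by its step gave whole reads, within 0.01, for 100% of values. The tables were normalized separately, so levels were set side by side across them and never tested.

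Symbols chose the genes. Within a table, limma 3.58.1 in R 4.3.3 compared the genotypes (mean-variance trend, two-sided) on log2(normalized count + 1), for genes averaging 10 or more. Fold changes on this scale understate the change of low genes. Adjusted p-values are Benjamini-Hochberg values over all tested genes, and an interaction contrast in a joint limma fit gave the difference between stimulations. On the recovered reads, edgeR 4.0.16 (quasi-likelihood) called 50 higher and 9 lower genes without IFN-beta, 511 and 500 with it, and 38 and 76 for the difference. DESeq2 1.42.0 was the other count test. The scripts were tested on simulated data.

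Coordinates, promoters and their start sites are from RefSeq GRCm38.p6, matched by Entrez identifier. Lengths are medians over each gene's basic protein-coding transcripts in GENCODE M21. Exact stretches of 75 bases of all 86 genes were searched on both strands in all M21 transcripts of other genes. Of these, 46 shared no stretch with another gene, and 17 shared over 10%.

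Genes named are those that passed, or else the 3 with the smallest p in a direction, the highest per length in each complex, the Sdh genes, tissue isoforms, and in each related list up to 4 that passed or else the 2 with the smallest p. One gene that this rule names in a related list is not reported here. The genes, lists and tests were chosen with earlier results of these data known. The genes whose genotypes did not overlap were named after their values were seen. Replicates differed by more than sampling noise (chi-square per degree of freedom from 1.88 to 9.23).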

Additional observations from a re-analysis of the deposited data

Results flagged for a closer look

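Groups of 4 libraries were searched for a library far from the other 3, in the genes named and in the sums, and 5 of 76 groups met Dixon's 95% limit, which chance gives in about 1 of 20. Ndufv2, an iron-sulfur subunit of complex I, stood at 307 normalized counts in 1 library labelled Morrbid-/- with IFN-beta, and the other 3 lay between 341 and 345. The cytosolic ribosomal protein genes of the libraries labelled Morrbid-/- with IFN-beta summed to 192643 normalized counts in replicate 4, and to between 159024 and 160927 in the other 3. The mitochondrially encoded mRNAs of that same replicate summed to 86843, and those of the other 3 to between 72347 and 74527. In wild type with IFN-beta, Atp5a1 stood at 1504 normalized counts in 1 library and between 1242 and 1284 in the other 3. In wild type with IFN-beta, Ndufa3, an accessory subunit of complex I, stood at 37.8 normalized counts in 1 library and between 23.4 and 24.5 in the other 3.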

How the results depend on the processing

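Without IFN-beta and for the difference between stimulations, the counts of oxidative phosphorylation genes higher and lower stayed at 0 under each of 20 and 27 alternatives. With IFN-beta, against 1 higher and 2 lower, there were 0 higher and 2 lower at a mean of at least 50, which leaves Ndufb4 untested. DESeq2 gave 0 higher and 1 lower, with no adjusted p for 12 of the 80 genes, Ndufb4 among them. There was 1 higher and 0 lower in limma without the trend, and 1 higher and 1 lower with robust empirical Bayes, with the 16S rRNA share as a covariate and in one fit of all libraries. The fit with the replicate block gave 2 higher and 3 lower, as Atp5b (adjusted p = 0.032) and Cox7b (0.0465) also passed. Same-numbered libraries were not paired by the labels and correlated between 0.00 and 0.14 with IFN-beta and between -0.02 and 0.20 without it. Differently numbered ones correlated between -0.08 and 0.04 with IFN-beta and between -0.20 and 0.06 without it. Whether the numbers mark a shared effect was not tested. Leaving out one library gave 0 to 2 higher and 0 to 3 lower, with 0 and 0 without the Morrbid-/- replicate 2. Atp5b also passed with the 16S share as a covariate and Cox7b with array quality weights, which kept 1 higher and gave 3 lower. Of the genes with the smallest p, for which alternatives were run in 15 results, 0 turned their sign. The median change ranged from 0.02 to 0.17 with IFN-beta, from -0.11 to 0.06 without it (0.06 without the wild-type replicate 1 and 0.01 without the Morrbid-/- replicate 3) and from -0.01 to 0.19 for the difference. Without the trend, calls over all genes with IFN-beta were 171 higher and 134 lower, and without the Morrbid-/- replicate 2 they were 321 and 288. Over all genes the replicate block gave 730 higher and 691 lower with IFN-beta, and 94 and 75 without it. The cause of these shifts was not tested. Intervals were wider for low genes: 24 of the 31 with a mean under 50 with IFN-beta had a 95% interval within ±1 log2, against 49 of the 49 above it.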

Other observations

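The make-up of the chain, as each gene's share of the summed normalized counts of all its genes in a library, stood apart between the tables for some genes, 4 of which are given here. Ndufa12, an accessory subunit of complex I, made up 0.22% of the sum with IFN-beta (0.20% to 0.29% over 8 libraries), against 1.04% without it (0.90% to 1.15% over 6 libraries). Ndufb4 made up 0.14% with IFN-beta (0.054% to 0.24%), against 0.48% without it (0.42% to 0.55%). Ndufaf4, a complex I assembly factor, made up 0.99% with IFN-beta (0.81% to 1.13%), against 2.17% without it (2.06% to 2.37%). In the other direction, Ndufb9 made up 1.62% with IFN-beta (1.36% to 2.01%), against 0.76% without it (0.61% to 0.93%). The libraries of the tables did not overlap for any of these 4 genes, which were chosen after their values were seen. The tables differ in depth and were normalized separately, and a step that differed between them cannot be told apart from IFN-beta, so no test was run. Of the 75-base stretches of Ndufa12, 14.6% also occur in the pseudogene Gm15920, and 13.4% of those of Ndufb9 occur in the overlapping gene Gm49356.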
